A study of Mus musculus with 125 samples.

Results

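Stat2, Irf1, Irf2, Irf7, Irf8, Irf9, Batf2 and Socs1, which carry, relay or restrain interferon signals, were followed through the chromatin accessibility data of mouse leukaemia cells (B-ALL, acute lymphoblastic leukaemia of the B lineage) that grew with or without natural killer (NK) cells. Their members in the data were the consensus peaks, regions of open DNA called over all libraries, whose centre lay within 3 kb of an annotated start site of 1 of these genes or inside its gene body. This rule found 53 peaks of 256400 in all. Irf2 held 30 of them, Stat2 and Batf2 6 each, Irf7 and Irf8 3 each, Irf1 and Socs1 2 each and Irf9 1. Each peak is named here by its gene and the distance of its centre from the 5′ end of the gene record in kb.

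Type I interferons activate STAT2, which joins IRF9 in the complex ISGF3 and binds interferon-stimulated response elements (ISREs). Interferon-γ (IFN-γ), the main cytokine of NK cells, acts through GAS elements and switches on a second wave of factors, among them IRF1, IRF8 and BATF2. IRF2 competes with IRF1 for shared sites, IRF7 amplifies type I interferon production, and SOCS1 binds Janus kinases and shuts the signal off. In B-cell precursors IRF8 also acts in lineage specification, together with the ETS factor PU.1.

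ATAC-seq, in which the Tn5 transposase cuts open DNA and leaves sequencing adapters in it, was performed on 125 libraries of 4 lines, A to D. All lines were made from mouse bone marrow by retroviral transduction with BCR/ABLp185 and carried a lentiviral DNA barcode with GFP, and GFP+ cells were sorted before transposition. Lines A and B were barcoded versions of 1 parental line and C and D of a different one, so that only 2 parental lines stand behind the comparison of A/B with C/D. Per the labels there were 3 arms, tumour cells only at time point 1 (TP1, "alone" here), tumour plus NK cells at TP1 and tumour plus NK cells at time point 2 (TP2), and the labels give no NK cell genotype although the design text of the series also names Ifng-/- and Prf-/- NK cells. For C/D, the legend of the study's ATAC-seq comparison with cells alone names wild-type NK cells. TP1 was day 4 and TP2 day 10, but days 6 and 16 in experiment 9.7. For the libraries labelled day 10, the study's methods give later days for TP2. Tumour cells alone were sampled at TP1 only, so at TP2 the length of culture cannot be told apart from the presence of NK cells. Line and experiment formed 14 combinations (6 for A/B, 8 for C/D), which gave 41 groups of 3 libraries and 1 group of 2.

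Library totals in peaks ranged from 3083547 to 13580746 counts. In 2 groups of line C a pair of libraries showed a difference below the sampling noise, and each such pair entered as 1 sample, so A/B had 54 samples and C/D 69. Promoter peaks were present at all 12 B-ALL markers, with summed levels of 521.7 to 920.2 CPM in A/B alone, 458.2 to 663.7 CPM with NK cells at TP1 and 444.5 to 814.7 CPM at TP2. In A/B, 9 of these 12 promoters were lower at TP1 and 8 at TP2 at an adjusted p of 0.05 or less, none of them past the fold limit. Of all peaks tested in A/B 23.8% were lower at TP1 and 15.7% at TP2. In C/D the summed B-ALL marker levels were 472.0 to 726.3, 458.3 to 770.7 and 440.6 to 855.3 CPM in the same order. By the adjusted p, 0 of the 12 were lower in C/D at either time, and 0 were higher at TP1 and 2 at TP2. Of all peaks tested in C/D 5.18% were lower and 9.28% higher at TP1, and 16.8% and 17.7% at TP2. Of 18 NK cell markers 13 had a promoter peak, and Ncr1, Klrk1, Klra8, Ifng and Klrg1 had none. The summed NK marker level was 58.35 to 74.62 CPM alone, 52.0 to 80.84 CPM at TP1 and 44.15 to 77.39 CPM at TP2 in A/B, and 50.9 to 72.29, 47.47 to 74.79 and 43.76 to 100 CPM in C/D. It was above the highest sample alone in 2 of 18, 3 of 18, 3 of 24 and 5 of 23 samples with NK cells, and 12 of these 13 samples were from experiment 9.6. Leaving the 13 out changed none of the 6 counts of called members in the comparisons within a pair of lines, and it was not run for the comparisons between the pairs. The promoter of Klra1 was called lower at TP2 in A/B (-0.81 against cells alone, edgeR adjusted p = 1.2e-06; -0.59 against TP1) and that of Klrd1 lower at TP2 than at TP1 (-0.61). At the adjusted p only, 3 of 9 tested NK marker promoters were higher and 1 lower in A/B at TP1, and 0 and 3 at TP2. In C/D 1 of 9 was higher and 0 lower at TP1, and 0 and 2 at TP2. Summed myeloid markers, 9 of 9 with a peak, were 35.55 to 46.77 CPM in A/B alone, 42.89 to 57.78 CPM with NK cells at TP1 and 37.48 to 59.11 CPM at TP2, and for C/D 41.61 to 59.3, 47.48 to 64.52 and 43.76 to 75.61 CPM. Among them the promoter of Mpeg1, a macrophage perforin gene, was called higher in A/B at TP1 (0.73 ± 0.078, edgeR adjusted p = 5.4e-12), and its log2 change was 0.44 at TP2 and, for C/D, 0.52 and 0.57. At the adjusted p only, 2 of 6 tested myeloid promoters were higher and 0 lower in A/B at either time. In C/D 1 of 7 was higher and 2 were lower at TP1, and 1 was higher and 0 lower at TP2. Of all peaks tested in A/B 19.7% were higher and 23.8% lower at TP1, and 15% and 15.7% at TP2. The part of these markers in the results was not tested. Summed T cell markers stayed between 10.73 and 34.7 CPM over all samples. In bulk samples fewer open cells and less opening per cell cannot be told apart.

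The sequences upstream of the start sites show which of these promoters hold the letters that STAT and IRF factors are known to bind. Windows were searched on both strands for the ISRE core GAAANNGAAA and the GAS element TTCNNNGAA, whose matches may overlap, although no printed window held both. In the RefSeq windows of 250 bases before the start site, 2.98% of 32851 promoters held an ISRE core and 7.02% a GAS element. The windows with a match that lie wholly outside the gene's own exons are printed 5′ to 3′ on the gene's strand, with the matches in capitals. Windows that overlap an exon of the gene are not printed, whether or not they hold a match. The Stat2 window (GRCm38, chr10:128270248-128270497, plus strand) had an ISRE core that began at position -222 from the start site, and the Irf1 window (chr11:53769764-53770013, plus strand) a GAS element at -90. The Irf8 window (chr8:120736108-120736357, plus strand) had GAS elements at -171 and -153, and the Socs1 window (chr16:10785537-10785786, minus strand) had 2 ISRE cores, at -83 and -77, that share 4 bases.
Stat2 promoter: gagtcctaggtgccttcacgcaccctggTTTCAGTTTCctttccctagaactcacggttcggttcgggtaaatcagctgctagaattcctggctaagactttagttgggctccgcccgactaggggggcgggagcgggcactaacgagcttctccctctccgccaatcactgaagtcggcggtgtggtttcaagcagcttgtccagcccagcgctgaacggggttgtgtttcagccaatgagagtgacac
Irf1 promoter: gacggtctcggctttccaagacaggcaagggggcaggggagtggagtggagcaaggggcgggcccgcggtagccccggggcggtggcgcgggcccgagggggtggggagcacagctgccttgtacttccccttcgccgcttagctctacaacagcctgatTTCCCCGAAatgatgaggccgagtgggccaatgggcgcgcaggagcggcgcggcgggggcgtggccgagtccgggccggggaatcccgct
Irf8 promoter: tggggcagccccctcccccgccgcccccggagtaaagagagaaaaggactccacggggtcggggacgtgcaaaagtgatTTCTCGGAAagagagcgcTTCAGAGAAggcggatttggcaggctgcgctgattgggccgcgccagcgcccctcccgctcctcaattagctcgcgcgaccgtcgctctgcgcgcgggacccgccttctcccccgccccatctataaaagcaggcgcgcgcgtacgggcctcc
Socs1 promoter: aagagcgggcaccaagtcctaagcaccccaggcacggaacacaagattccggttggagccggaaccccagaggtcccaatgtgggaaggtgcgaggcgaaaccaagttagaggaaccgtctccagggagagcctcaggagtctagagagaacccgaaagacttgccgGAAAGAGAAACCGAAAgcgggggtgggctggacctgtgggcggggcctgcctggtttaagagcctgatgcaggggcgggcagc

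The Irf8 +4.3 kb peak is shown as the member inside a gene body that rose with NK cells at some distance from the start site, by its central 300 bases (GRCm38, chr8:120740515-120740814, plus strand), which lie in an exon of a non-coding Irf8 transcript. This window held neither motif, so nothing is in capitals.
Irf8 +4.3 kb: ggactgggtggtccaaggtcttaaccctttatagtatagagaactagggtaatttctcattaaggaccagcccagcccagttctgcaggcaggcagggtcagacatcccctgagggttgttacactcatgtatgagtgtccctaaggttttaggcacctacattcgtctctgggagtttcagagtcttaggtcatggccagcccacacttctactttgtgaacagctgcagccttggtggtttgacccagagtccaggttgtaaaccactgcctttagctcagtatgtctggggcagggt

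In the central 300 bases of the 20 member peaks that could be tested, 3 held an ISRE core and 4 a GAS element, against 4.78% and 9.12% of all 58832 tested peaks. The Irf9 +0.7 kb window held the GAS element TTCTAGGAA and the Irf7 +0.7 kb window the ISRE core TTTCAGTTTC. A match describes these letters and is not evidence that a factor was bound.

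A peak was tested in a pair of lines where, as the presence rule, a broad peak was called over it in every replicate of at least 1 group and its counts passed the filter. Of the 53 members 20 were tested, 19 in each pair and 18 in both, and 33 were not, among them 23 of the 30 at Irf2. The 33 untested peaks were called in 1 to 15 of the 125 libraries and had median counts of 1 to 50 per library, whereas 11 members were called in every library. On the scale of CPM per kb of peak, the untested members had a median of 1.51 in A/B alone and 1.78 in C/D alone, and the tested members 13.5 and 10.5. Among the tested peaks in A/B alone, Socs1 -0.4 kb was the most open at 38.5 CPM per kb, followed by Irf8 +10.4 kb at 33.4 and Batf2 +0.3 kb at 31.5. The promoters of Irf1, Irf2, Stat2, Irf7, Irf9 and Irf8 followed at 23.3, 22.0, 17.4, 17.2, 14.3 and 11.9 CPM per kb. The peak over the coding start of Batf2, at 2.19 CPM per kb in A/B and 2.21 in C/D, was near the untested members.

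**Figure D1:**
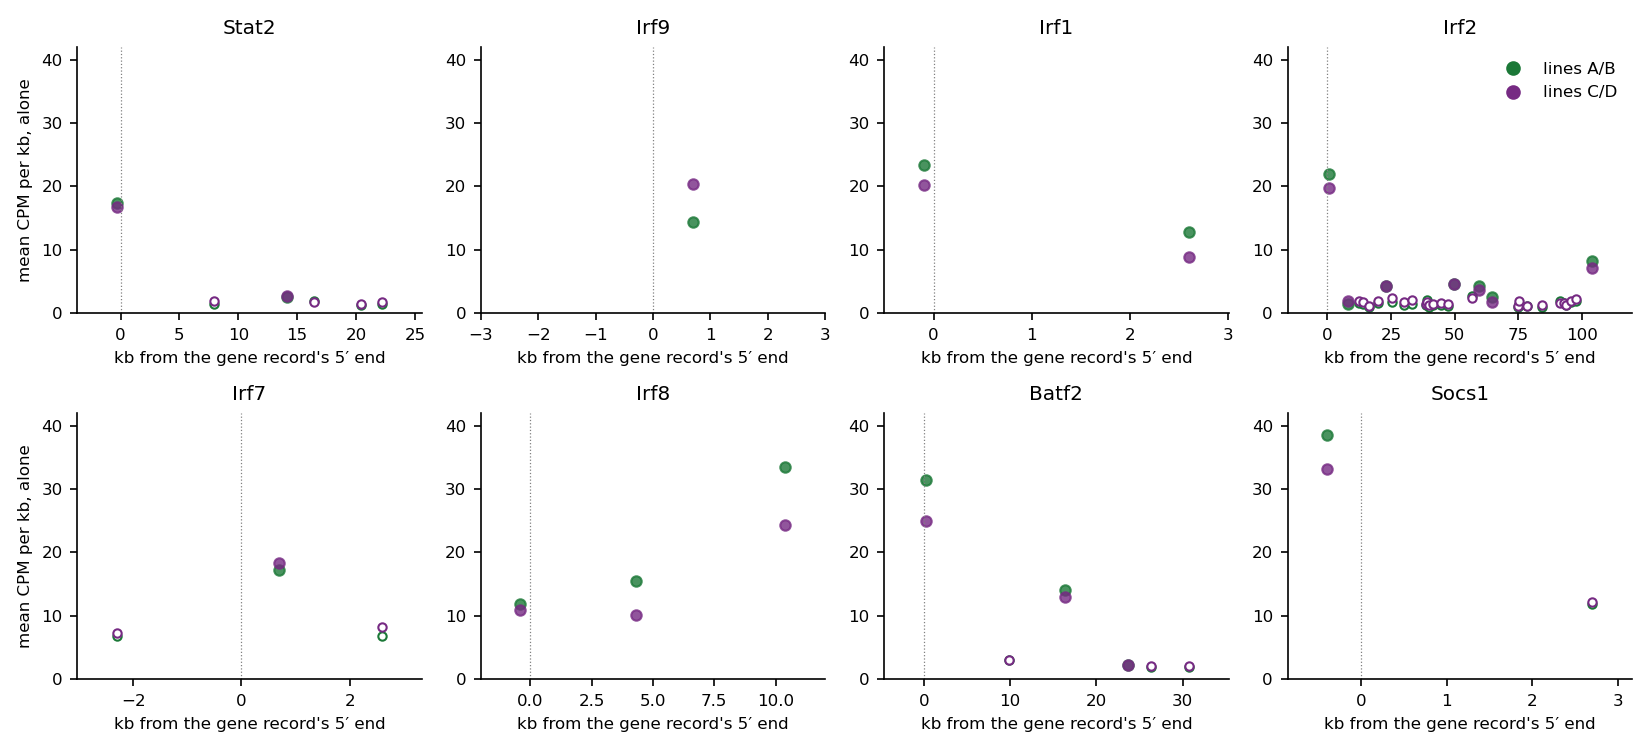
Position and openness of the 53 member peaks in cells alone. Each panel is a gene, the x axis gives the distance of the peak centre from the 5′ end of the gene record in kb, the y axis the mean level in CPM per kb, filled points are peaks tested in at least 1 pair of lines and open points are peaks tested in neither; the most open peaks lie at Socs1 (38.5 CPM per kb in A/B), 10.4 kb inside Irf8 (33.4) and at the 5′ end of Batf2 (31.5), while most peaks along Irf2 are low and were not tested.

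With NK cells, a small peak in the first kilobases of Irf1 and the peak over the coding start of Batf2 gained accessibility in both pairs of lines, a peak inside Irf8 gained in C/D at TP2, and no member was called lower. To be called, a peak needed a change of at least 0.58 on the log2 scale in either direction and, in edgeR's quasi-likelihood test with Benjamini-Hochberg adjustment over all tested peaks, an adjusted p no higher than 0.05. Irf1 +2.6 kb and Batf2 +23.6 kb passed the presence rule only through groups with NK cells, since in no group alone was either called in every library, so they entered the test through the arms in which they were high and the counts of members called below are a description. When peaks were chosen by their counts over all samples with no regard to arm or peak calls, an alternative added after seeing the data, 28 members in A/B and 27 in C/D were tested, and these peaks gave log2 changes of 0.82 and 1.28 at TP1 and 1.10 and 1.13 at TP2 for A/B, and 1.09 and 0.58 at TP1 and 1.37 and 0.79 at TP2 for C/D, each of them called. Stat2 +14.1 kb in A/B and Irf2 +8.1 kb in C/D also passed the presence rule only through groups with NK cells. In the alternative without that rule, Stat2 +14.1 kb changed by 0.18 in A/B at TP2 and was not called. In A/B at TP1, 2 of 19 members were called higher and 0 lower, where 6.89% of all tested peaks were called higher and 1.07% lower. At TP2 in A/B these were again 2 and 0, against 5.06% and 1.37%. In C/D, 1 member was called higher at TP1 and 3 at TP2 and none lower, against 1.71% and 0.112% of all peaks at TP1 and 1.73% and 1.01% at TP2. For A/B the members had a median log2 fold change of 0.11 at TP1 and 0.070 at TP2, where that of all tested peaks was -0.016 and -0.013. For C/D these medians were 0.15 and 0.14, against -0.012 and 0.0034.

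Without the fold limit, at the adjusted p only, A/B had 7 members higher and 2 lower at TP1, where 19.7% of all peaks were higher and 23.8% lower. At TP2 in A/B there were 6 and 1, against 15% and 15.7%. In C/D 8 were higher and 0 lower at TP1, against 9.28% and 5.18%, and 9 were higher and 1 lower at TP2, against 17.7% and 16.8%. Between TP2 and TP1 no member was called by edgeR in either pair, and none by DESeq2, with 6 members in A/B and 7 in C/D at an unadjusted p under 0.05. No share of all peaks at that unadjusted limit is given, so the 6 and 7 are a description. At the adjusted p only, A/B had 2 members higher and 3 lower at TP2 than at TP1, against 9.23% and 9.81% of all peaks. C/D had 3 and 1, against 13.2% and 14.4%. For A/B 0.112% of all tested peaks were called higher and 1.52% lower at TP2 than at TP1, and for C/D 0.204% and 0.433%.

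**Figure D2:**
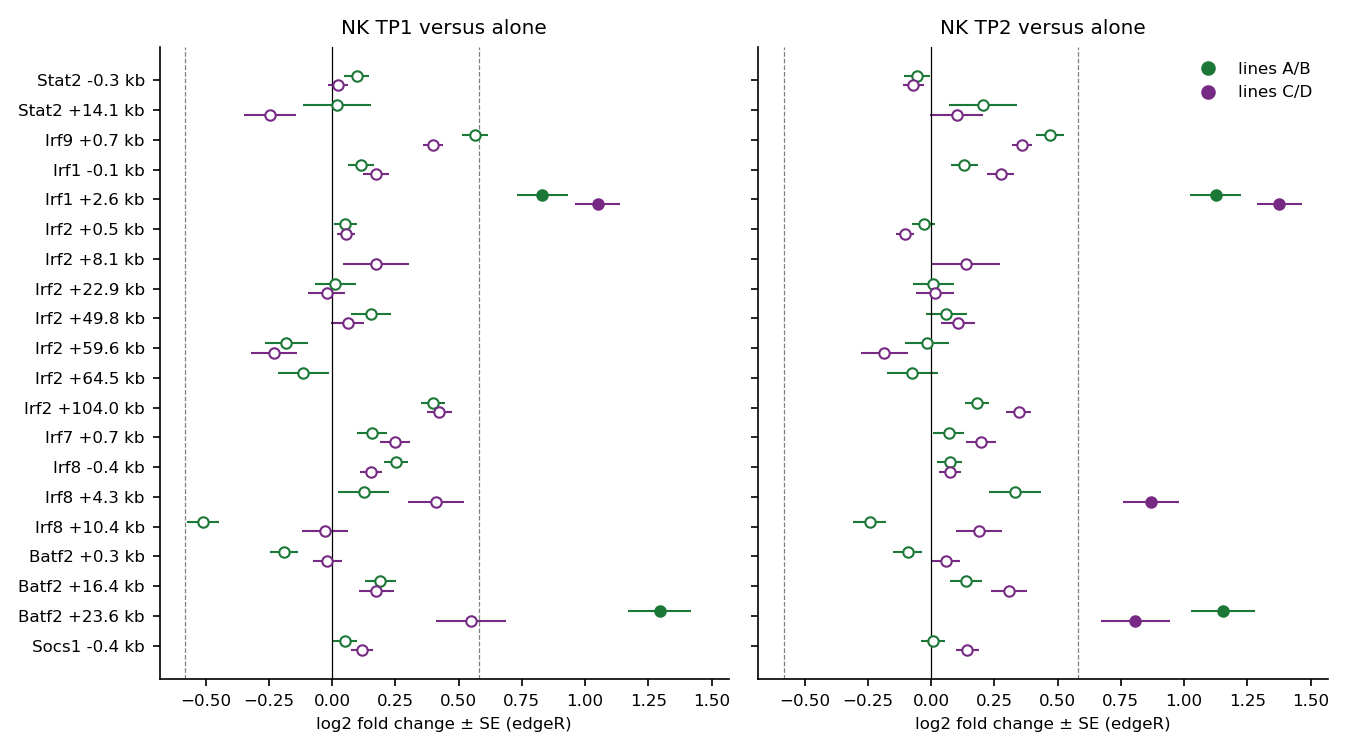
Change of the 20 tested member peaks with NK cells. The x axis gives the log2 fold change against cells alone with its SE as a bar, at TP1 on the left and TP2 on the right, green for lines A/B and purple for C/D, filled points are called and the dashed lines mark 0.58. Irf1 +2.6 kb and Batf2 +23.6 kb stand furthest to the right in A/B at both times and in C/D at TP1. In C/D at TP2 Irf1 +2.6 kb (1.38) is followed by Irf8 +4.3 kb (0.87) and Batf2 +23.6 kb (0.81). Irf8 +10.4 kb lies furthest to the left in A/B at TP1 (-0.51).

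IRF9 is the DNA-binding subunit of ISGF3, and its gene (ENSMUSG00000002325.15) had a single peak, +0.7 kb (chr14:55603261-55605200), centred in a coding exon and spanning the start site. In A/B the lowest, median and highest sample had 19.96, 26.6 and 36.5 CPM alone, 34.3, 43.2 and 48.4 CPM with NK cells at TP1 and 31.0, 37.6 and 49.5 CPM at TP2. Of 18 samples with NK cells 13 at TP1 and 10 at TP2 lay above the highest sample alone, so the groups overlapped in part. In C/D the values were 31.3, 41.5 and 49.5 CPM alone, 37.8, 52.9 and 60.7 CPM at TP1 and 37.6, 50.2 and 59.7 CPM at TP2, with 16 of 24 and 14 of 23 above the highest alone. The log2 fold change in A/B was 0.56 ± 0.053 (SE, edgeR adjusted p = 7.5e-14) at TP1 and 0.47 ± 0.054 (adjusted p = 1.1e-10) at TP2. C/D gave 0.40 ± 0.040 (adjusted p = 8.5e-13) at TP1 and 0.36 ± 0.041 (adjusted p = 6.1e-11) at TP2. The peak was higher in all 6 and all 8 combinations at both times, and over all samples the change was under the fold limit, so the peak was not called. The A/B value at TP1 lay so near the limit that the peak was called with promoter peaks only, with peaks called in every library, under a loess scaling, without replicate 2 and without experiment 9.7. Within single experiments of A/B the TP1 change was 0.69 in 9.5 and 0.61 in 9.6, both called, and 0.45 in 9.7, not called. The peak was also called in 9.5 of A/B at TP2 (0.68) and in 9.6.1 of C/D at TP1 (0.65).

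STAT2, which brings the activation domain to ISGF3, showed no comparable change at its promoter. The Stat2 -0.3 kb peak (ENSMUSG00000040033.16, chr10:128269338-128271109), which also lies near a start site of Apof and holds the ISRE core shown above, had 30.8 ± 2.23 CPM (SD over combinations, n = 6) in A/B alone, 33.3 ± 3.90 at TP1 and 29.6 ± 2.57 at TP2. In C/D the means were 29.6 ± 2.40 CPM (SD, n = 8), 29.9 ± 2.43 and 28.0 ± 2.03. The log2 fold changes against cells alone lay between -0.071 and 0.096, with edgeR adjusted p from 0.108 to 0.763, and the samples of all arms overlapped. Between the 2 times the A/B promoter was lower at TP2 by a log2 change of -0.15 ± 0.049 (adjusted p = 0.023; lower in 6 of 6 combinations). Inside the gene, Stat2 +14.1 kb (chr10:128283123-128286203, intronic), named after its values were seen, passed against cells alone in neither pair, but its change at TP2 differed in sign between experiments. By the mean CPM plus 0.5 of each combination, the log2 difference at TP2 was 0.44 and 1.06 for lines A and B in 9.6, where the peak was called, and -0.25 and -0.82 in 9.7. Lines C and D had 0.49 and 0.61 in 9.6 and -0.66 and -0.57 in 9.7, where the peak was called lower. Without experiment 9.7 it was called higher in A/B at TP2. In A/B it had entered the test only through groups with NK cells. Over all C/D samples it was higher at TP2 than at TP1 by 0.35 ± 0.10 (adjusted p = 0.0081; 6 of 8 combinations). The other 4 Stat2 peaks were not tested.

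IRF1, a transcriptional activator that IFN-γ induces, had a member that gained in every combination of line and experiment. The Irf1 +2.6 kb peak (ENSMUSG00000018899.16, chr11:53772390-53772829) is 440 bases long, lies in an intron of Irf1 and also in an exon of the overlapping gene Gm17334. It was called as a broad peak in none of the 18 A/B and 23 C/D libraries alone. With NK cells it was called in 8 of 18 and 6 of 24 libraries at TP1 and in 12 of 18 and 15 of 24 at TP2. In C/D the lowest, median and highest sample had 2.42, 3.90 and 5.84 CPM alone, 3.08, 8.20 and 11.8 CPM at TP1 and 5.61, 9.72 and 16.6 CPM at TP2. Of these, 21 of 24 samples at TP1 and 22 of 23 at TP2 were above the highest alone, so the groups barely overlapped. In A/B the values were 2.84, 5.38 and 11.2 CPM alone, 5.11, 9.7 and 14.6 CPM at TP1 and 6.16, 10.7 and 19.7 CPM at TP2. Here 7 and 8 of 18 samples were above the highest alone, a wider overlap. 

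At Irf1 +2.6 kb the log2 fold change was 0.83 ± 0.10 (SE, edgeR adjusted p = 3.6e-10) at TP1 and 1.13 ± 0.10 (adjusted p = 1.9e-14) at TP2 in A/B, or 1.78-fold and 2.18-fold. For C/D it came to 1.05 ± 0.089 (adjusted p = 9.0e-16) and 1.38 ± 0.089 (adjusted p = 3.1e-21), or 2.07-fold and 2.60-fold. The peak was higher in 6 of 6 and 8 of 8 combinations at both times. It was also higher at TP2 than at TP1, by 0.29 ± 0.090 in A/B (adjusted p = 0.017) and 0.33 ± 0.078 in C/D (adjusted p = 0.0015), again in every combination. Within single experiments it was called at both times in all 3 of A/B and in C/D in all but 9.5.1, where line C alone gave 0.46 at TP1 (adjusted p = 0.388) and 0.92 at TP2 (adjusted p = 0.0771).

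The promoter of Irf1, with the GAS element shown above, was open throughout and changed little. Irf1 -0.1 kb (chr11:53768576-53771239) had 62.2 ± 8.15 CPM (SD, n = 6) in A/B alone, 67.9 ± 10.1 at TP1 and 68.5 ± 10.9 at TP2. C/D had 53.8 ± 7.46 CPM (SD, n = 8), 60.1 ± 7.46 and 64.7 ± 8.45. Its log2 fold changes were 0.11 (edgeR adjusted p = 0.0701) and 0.13 (adjusted p = 0.047) for A/B, then 0.17 (adjusted p = 0.014) and 0.28 (adjusted p = 3.3e-05) in C/D. Between 5 and 9 samples of each arm with NK cells lay above the highest sample alone.

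**Figure D3:**
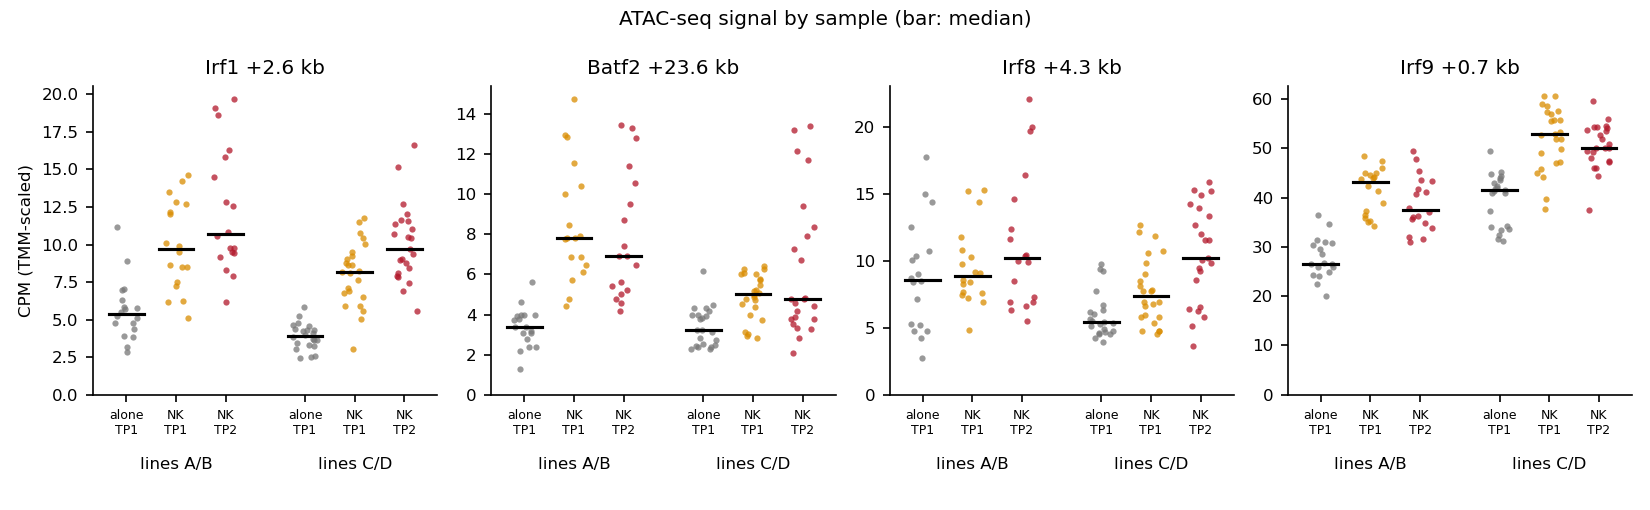
Level of 4 member peaks in every sample. The y axis of each panel gives CPM scaled to the effective library size, starting at 0, each point is a sample, bars are medians and the arms are alone at TP1, with NK cells at TP1 and with NK cells at TP2 for lines A/B and C/D; at Irf1 +2.6 kb 21 of 24 C/D samples at TP1 lie above all C/D samples alone, and at Batf2 +23.6 kb 16 of 18 A/B samples do.

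IRF2, which can oppose IRF1 at shared sites, had the longest row of peaks and few changes. Its promoter, Irf2 +0.5 kb (ENSMUSG00000031627.9, chr8:46738436-46742081), had 80.1 ± 5.91 CPM (SD, n = 6) in A/B alone and 71.9 ± 3.32 CPM (SD, n = 8) in C/D alone. With NK cells the log2 fold changes for A/B were 0.052 and -0.029 and those for C/D 0.056 and -0.10, of which the last passed the adjusted p (0.021, edgeR). In C/D the promoter was lower at TP2 than at TP1 by -0.16 ± 0.035 (adjusted p = 6.8e-04). 

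Far from the start, the Irf2 +104.0 kb peak (chr8:46841965-46845565) is named after its values were seen. In A/B it had 22.4, 29.8 and 33.8 CPM in the lowest, median and highest sample alone, 33.2, 39.1 and 45.4 CPM at TP1 and 28.7, 32.6 and 42.5 CPM at TP2. At TP1 17 of 18 samples were above the highest alone, and at TP2 6 of 18. The C/D samples had 19.5, 26.2 and 32.6 CPM alone, 25.3, 33.7 and 37.9 CPM at TP1 and 24.3, 31.2 and 47.1 CPM at TP2, with 16 of 24 and 10 of 23 above the highest alone. The peak rose by 0.40 (log2, edgeR adjusted p = 1.6e-10) and 0.18 (adjusted p = 0.0024) in lines A/B and by 0.42 (adjusted p = 1.8e-10) and 0.35 (adjusted p = 1.0e-07) in C/D, so it passed the p but not the fold limit. The other 5 tested Irf2 peaks, all between 8.1 and 64.5 kb into the gene, had log2 fold changes from -0.23 to 0.17 and none passed the adjusted p against cells alone.

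IRF7, which drives type I interferon genes, had 1 tested peak of 3. Irf7 +0.7 kb (ENSMUSG00000025498.15, chr7:141264597-141266921) covers the promoter and has its centre in an untranslated region. Its level was 40.0 ± 5.02 CPM (SD, n = 6) in A/B alone, 45.0 ± 5.87 at TP1 and 42.4 ± 9.18 at TP2. The C/D level was 42.5 ± 6.00 CPM (SD, n = 8), 49.6 ± 6.09 and 48.3 ± 9.58. Its log2 fold change was 0.16 (edgeR adjusted p = 0.028) at TP1 and 0.070 (adjusted p = 0.411) at TP2 in A/B, and 0.25 (adjusted p = 0.0013) and 0.20 (adjusted p = 0.0070) in C/D. At most 7 samples of an arm with NK cells lay above the highest sample alone, so the groups largely overlapped. At TP2 the single experiments of C/D gave log2 changes from -0.24 to 0.59, and the peak was called in 9.7.

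The 3 peaks of Irf8, a factor of B-cell and myeloid development that IFN-γ induces, moved in different ways. Irf8 -0.4 kb (ENSMUSG00000041515.10, chr8:120734244-120737746), the promoter with its 2 GAS elements, was higher in A/B at TP1, from 41.6 ± 4.40 to 49.96 ± 5.48 CPM (SD, n = 6), a log2 change of 0.25 (edgeR adjusted p = 1.5e-05), with 10 of 18 samples above the highest alone. In C/D at TP1 the change was 0.15 (adjusted p = 0.0080). At TP2 the values, 0.074 for A/B and 0.076 for C/D, passed in neither, and in A/B the promoter was lower at TP2 than at TP1 by -0.18 ± 0.048 (adjusted p = 0.0060; 6 of 6 combinations).

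The Irf8 +4.3 kb peak (chr8:120740377-120740951), whose central sequence is printed above, gained in C/D. The lowest, median and highest sample there had 3.93, 5.43 and 9.78 CPM alone, 4.54, 7.35 and 12.7 CPM at TP1 and 3.64, 10.2 and 15.9 CPM at TP2. Of the samples with NK cells 6 of 24 and 14 of 23 were above the highest alone, and the lowest at TP2 was below the lowest alone. The log2 fold change was 0.41 ± 0.11 (edgeR adjusted p = 0.0060) at TP1, not called, and 0.87 ± 0.11 (adjusted p = 3.7e-09) at TP2, called, and it was higher in 8 of 8 combinations at both times. TP2 was above TP1 by 0.46 ± 0.10 (adjusted p = 8.1e-04; 6 of 8 combinations). Both lines gave 0.87 at TP2, and the experiments gave 1.27, 1.66 and 0.97 in 9.5.1, 9.6.1 and 9.7, where it was called, and 0.49 and 0.54 in 9.5 and 9.6, where it was not. In A/B the samples had medians of 8.61, 8.85 and 10.2 CPM in the 3 arms and overlapped widely, with log2 changes of 0.12 (adjusted p = 0.339) and 0.33 (adjusted p = 0.0092).

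The Irf8 +10.4 kb peak (chr8:120745412-120748073), in an intron and also named after its values were seen, went the other way in A/B. Its samples had 51.1, 93.8 and 119.0 CPM alone, 43.9, 66.7 and 80.4 CPM at TP1 and 41.8, 74.9 and 111.0 CPM at TP2, and 7 of 18 at TP1 were below the lowest alone. The log2 fold change was -0.51 ± 0.064 (edgeR adjusted p = 1.2e-09; lower in 6 of 6 combinations) at TP1, short of the fold limit, and -0.24 ± 0.064 (adjusted p = 0.0024) at TP2. In the other pair it was -0.028 (adjusted p = 0.873) and 0.19 (adjusted p = 0.102), with medians of 58.9, 61.7 and 68.4 CPM. At TP2 the C/D experiments went different ways, with log2 differences of 1.01 in line C and 0.47 in line D in 9.7, where the peak was called higher, and of -0.17 and -0.48 in 9.5. In the fit of experiment 9.5 by itself it was called lower for A/B at TP1. In A/B at TP1 9 of the 12 B-ALL marker promoters were lower too, as given above, beside 23.8% of all tested peaks. Whether they share anything with this peak was not tested.

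BATF2, a basic leucine zipper factor that partners IRF1 and is induced by IFN-γ, had its gain at the start of the coding transcripts. The 5′ end of the Batf2 gene record (ENSMUSG00000039699.14) is that of a processed transcript, and the peak there, Batf2 +0.3 kb (chr19:6140440-6142091), overlaps the body and a start site of Arl2. The coding transcripts begin inside Batf2 +23.6 kb (chr19:6163777-6165315). That peak was called in 3 of 18 A/B libraries alone, 16 of 18 at TP1 and 16 of 18 at TP2, and in C/D in 4 of 23, 22 of 24 and 16 of 24.

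In A/B the Batf2 +23.6 kb peak had 1.30, 3.37 and 5.64 CPM in the lowest, median and highest sample alone, 4.44, 7.84 and 14.7 CPM at TP1 and 4.15, 6.91 and 13.5 CPM at TP2. At TP1 16 of 18 and at TP2 11 of 18 samples were above the highest alone. The C/D samples had 2.26, 3.22 and 6.17 CPM alone, 2.82, 5.03 and 6.41 CPM at TP1 and 2.08, 4.77 and 13.4 CPM at TP2. There 3 of 24 and 9 of 23 were above the highest alone and 1 at TP2 was below the lowest, so that a part of the TP2 samples rose far and the rest overlapped the samples alone. The log2 fold change in A/B was 1.30 ± 0.12 (edgeR adjusted p = 1.9e-13) at TP1 and 1.15 ± 0.13 (adjusted p = 4.7e-11) at TP2, higher in 6 of 6 combinations. For C/D the change was 0.55 ± 0.14 (adjusted p = 0.0026; 8 of 8), just short of the fold limit, at TP1 and 0.81 ± 0.14 (adjusted p = 4.0e-06; 6 of 8) at TP2.

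The C/D value at TP2 differed between experiments. It was 1.82 in 9.5 and 1.14 in 9.6, against 0.29 in 9.5.1, 0.32 in 9.6.1 and -0.13 in 9.7, and 0.61 in line C and 0.98 in line D. In A/B the single experiments gave 1.12 to 1.66 at TP1 and 0.70 to 1.56 at TP2 and the peak was called in each. Over all samples the other Batf2 peaks moved less. Batf2 +16.4 kb (chr19:6156475-6158332), with an ISRE core in its central 300 bases and also named after its values were seen, had log2 changes of 0.19 (adjusted p = 0.0098) and 0.14 (adjusted p = 0.0887) in A/B and 0.17 (adjusted p = 0.0835) and 0.31 (adjusted p = 5.1e-04) in C/D. In the fit of experiment 9.6.1 by itself, Batf2 +16.4 kb was called higher in C/D at both times. Batf2 +0.3 kb was lower in A/B at TP1, from 52.0 ± 6.77 to 46.2 ± 8.04 CPM (SD, n = 6; log2 change -0.19, edgeR adjusted p = 0.0046; 6 of 6 combinations), and passed in none of the other 3 comparisons with cells alone.

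**Figure D4:**
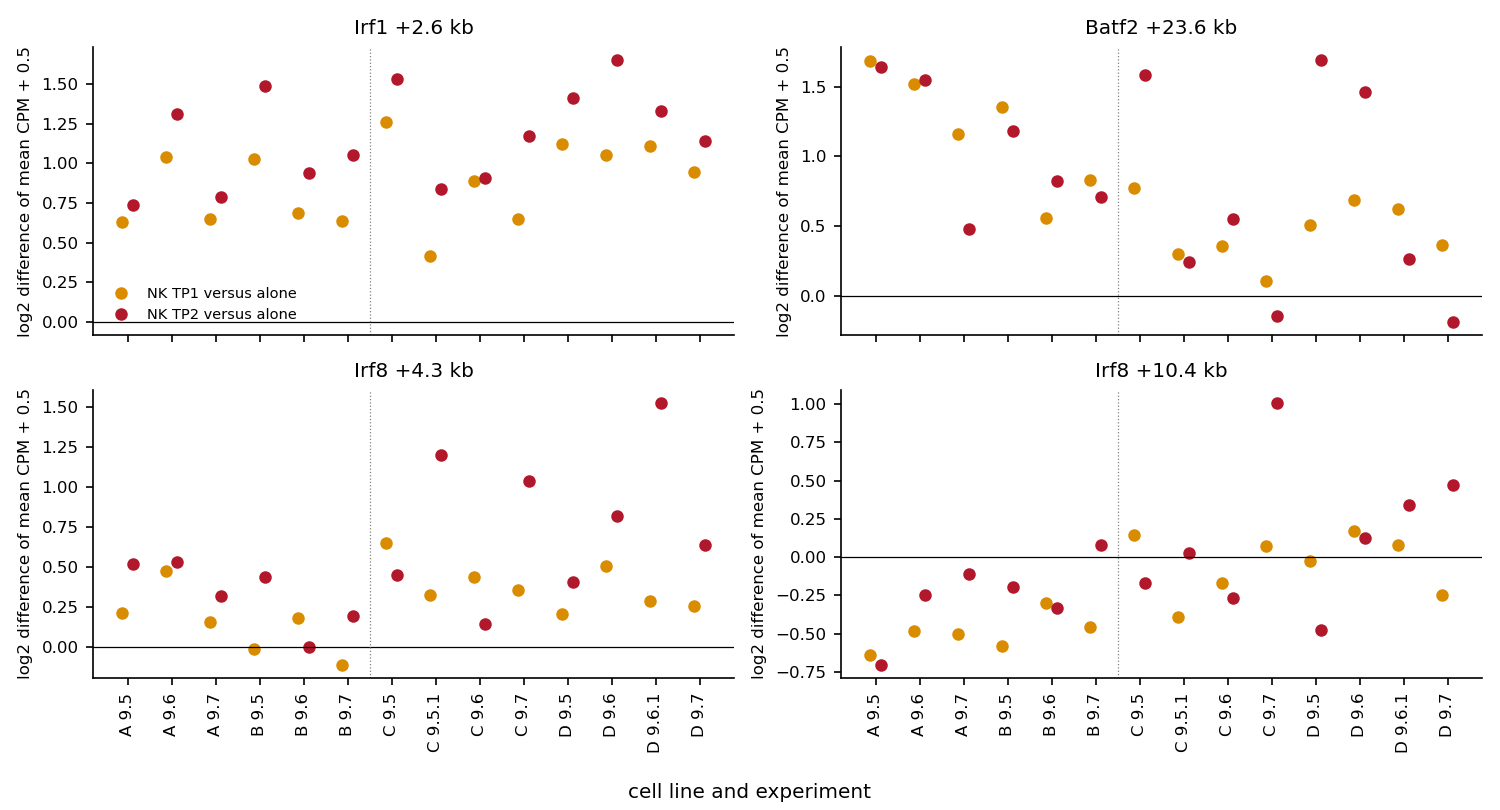
Change of 4 member peaks in each combination of line and experiment. The x axis lists cell line and experiment, with A/B left and C/D right of the dotted line, and the y axis gives the log2 difference of the mean CPM plus 0.5 between cells with NK cells and cells alone, orange at TP1 and red at TP2; Irf1 +2.6 kb is above 0 everywhere, whereas Batf2 +23.6 kb at TP2 ranges from 1.69 in D 9.5 to -0.19 in D 9.7.

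SOCS1, the feedback inhibitor of the Janus kinases, had the most open member per kb, which changed little. Socs1 -0.4 kb (ENSMUSG00000038037.5, chr16:10784401-10787426), which also lies near a start site of Tnp2 and holds the overlapping ISRE cores shown above, had 83.4, 120.0 and 143.2 CPM in the lowest, median and highest A/B sample alone, 92.4, 127.8 and 153.9 CPM at TP1 and 90.1, 120.7 and 140.5 CPM at TP2. Lines C/D had 77.6, 100.1 and 120.1 CPM alone, 77.8, 110.5 and 124.0 CPM at TP1 and 81.0, 112.8 and 128.8 CPM at TP2. The arms overlapped in both pairs. The promoter's log2 fold change was 0.052 (edgeR adjusted p = 0.389) and 0.0073 (adjusted p = 0.931) for A/B, then 0.12 (adjusted p = 0.0585) and 0.14 (adjusted p = 0.0095) in C/D. The other Socs1 peak was not tested.

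In cells alone, no member was called between A/B and C/D by edgeR with both limits, nor with the size factors of DESeq2 in the same fit, with 11 of 18 at an unadjusted p under 0.05. The share of all peaks at that unadjusted limit is not given. Of all peaks tested in both pairs 3.06% were called higher and 7.31% lower in A/B. At the adjusted p only, A/B was higher at 10 members and lower at 1, against 27.4% and 23.0% of all. The 1 lower in A/B was Irf9 +0.7 kb, at 27.8 ± 3.43 against 39.6 ± 4.89 CPM (SD, n = 6 and 8), a log2 difference of -0.51 ± 0.046 (adjusted p = 1.0e-18). Irf8 +4.3 kb was higher in A/B by 0.53 (adjusted p = 5.5e-05), Irf1 +2.6 kb by 0.49 (adjusted p = 5.0e-05), Irf8 +10.4 kb by 0.44 (adjusted p = 5.0e-06) and Batf2 +0.3 kb by 0.33 (adjusted p = 4.7e-07). Batf2 +23.6 kb differed by 0.013 (adjusted p = 0.955). These compare lines from 2 parental lines only.

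The change with NK cells itself differed between the pairs for 3 members at TP1, 2 of them more positive in A/B and 1 less, and for 2 at TP2, both less positive in A/B. Of all peaks 7.69% were more and 12.5% less positive in A/B at TP1, and 8.38% and 12.8% at TP2. At TP1 the A/B effect exceeded that of C/D by 0.77 ± 0.20 on the log2 scale at Batf2 +23.6 kb (edgeR adjusted p = 0.0035) and by 0.19 ± 0.062 at Irf9 +0.7 kb (adjusted p = 0.022), and at Irf8 +10.4 kb the difference was -0.46 ± 0.12 (adjusted p = 0.0035). At TP2 it was -0.53 ± 0.16 at Irf8 +4.3 kb (adjusted p = 0.0099) and -0.43 ± 0.12 at Irf8 +10.4 kb (adjusted p = 0.0060). Within the 3 experiments that held all 4 lines, the TP2 difference at Irf8 +4.3 kb was 0.0068 in 9.5, -0.31 in 9.6 and -0.65 in 9.7 and passed in none, and the highest C/D gains there came from 9.5.1 and 9.6.1, which held no A/B samples. At Irf8 +10.4 kb it was -0.097, -0.23 and -0.74 and passed in 9.7 (adjusted p = 0.0025). Each of the 3 TP1 differences passed in 9.5 and in neither 9.6 nor 9.7. In that order they were 0.95, 0.54 and 0.85 at Batf2 +23.6 kb and 0.28, 0.10 and 0.26 at Irf9 +0.7 kb. Those at Irf8 +10.4 kb were -0.65, -0.42 and -0.38. For Irf1 +2.6 kb the difference over all samples was -0.20 ± 0.14 (adjusted p = 0.303) at TP1 and -0.24 ± 0.14 (adjusted p = 0.191) at TP2. Without replicate 1, none of the 5 differences passed (adjusted p of 0.241 at Irf9, 0.186 at Batf2, 0.334 and 0.0606 at Irf8 +10.4 kb and 0.0813 at Irf8 +4.3 kb).

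Promoters of 43 other genes of the pathway, in 4 lists of receptors and kinases, other STAT and IRF factors, IRF partners and other feedback inhibitors, showed small changes. None was called by edgeR or DESeq2 in any of the 6 comparisons, with 32, 28 and 15 at an unadjusted p under 0.05 in A/B at TP1, at TP2 and between the times, and 10, 20 and 12 in C/D. These unadjusted counts are a description, since the share of all peaks at that limit is not given. At the adjusted p only, A/B had 5 of 42 higher and 22 lower at TP1, and 3 and 18 at TP2, beside 19.7% and 23.8% of all tested peaks at TP1 and 15% and 15.7% at TP2. C/D had 4 of 43 higher and 2 lower at TP1, and 5 and 11 at TP2, beside 9.28% and 5.18%, and 17.7% and 16.8%. Other STAT and IRF factors had 1 higher and 7 lower of 9 in A/B at TP1, the other feedback inhibitors 3 and 8 of 17, the IRF partners 1 and 5 of 9 and the receptors and kinases 0 and 2 of 7. Since none was called, 2 are named after their values were seen. The promoter of Usp18, which blocks the type I receptor, was higher at TP1 and TP2, by 0.41 and 0.26 for A/B and 0.43 and 0.27 for C/D. The promoter of Spib, an ETS partner of IRF factors, was lower in A/B at TP1 by -0.56 ± 0.075 (adjusted p = 6.8e-09).

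For each promoter member, the promoters whose profile was most like it were found by Pearson's r over 42 group means centred within each combination, which share libraries and depth, so that r is a description. Irf9 +0.7 kb was most like Iigp1 and Gm4951, both interferon-induced GTPase genes (r = 0.939 each), and Batf2 +23.6 kb like Gm24875 (r = 0.949) and 4930402H24Rik (r = 0.946). Irf8 -0.4 kb was most like Tapbpl (r = 0.780) and Wars (r = 0.750), and Irf1 -0.1 kb like Gm16174 (r = 0.841) and Traf2 (r = 0.839). Irf2 +0.5 kb was most like Pde3b (r = 0.894), Irf7 +0.7 kb like Slc23a2 (r = 0.870), Batf2 +0.3 kb like Ovca2 (r = 0.885), Socs1 -0.4 kb like Ccnd1 (r = 0.824) and Stat2 -0.3 kb like Rfc3 and Angel2 (r = 0.776 each).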

How the data were processed

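The deposited table holds raw counts: the authors aligned read pairs to GRCm38 with STAR in a Nextflow ATAC-seq pipeline, marked duplicates with Picard 2.27.4, called broad peaks with MACS2 2.2.7.1, removed blacklisted regions (the methods name a GRCh38 list), merged 256400 consensus peaks with BEDTools and counted with featureCounts (minimum overlap fraction 0.2). The broad peaks of each library were deposited with the −log10 of their q-value, the lowest being 1.00. Coordinates of peaks are printed as deposited, which places starts 1 base left of a browser. Those of the printed sequence windows count from 1, as a browser does. Gene models were GENCODE vM21, and sequences RefSeq GRCm38.p6 tables or that genome.

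Counts were tested with edgeR 4.0.16 in R 4.3.3 (quasi-likelihood F-test, TMM, filterByExpr, additive term for each combination of line and experiment, all 3 arms), A/B apart from C/D as in the study, over 48994 and 55456 peaks genome-wide, with 1 joint fit over 45572 for differences between the pairs (called there at the adjusted p alone). Residual degrees of freedom were 46, 59 and 105, and biological variation had a coefficient of 0.127 (A/B) and 0.139 (C/D). SE was computed as the size of the log2 fold change divided by the root of F. CPM are counts over the TMM effective library size, and SD is over combination means. A test on simulated counts, drawn with the mean counts, library sizes and common dispersion of the A/B fit, was run after the fits. Per the study's methods the replicates of a condition were separate wells, so the p-values rest on the spread between wells of 1 line in 1 experiment. Alternatives were DESeq2 1.42.0 and its size factors, other scalings, filters and windows, a replicate block, leaving out replicates or experiments, no presence rule (added after seeing the data), and single experiments and lines.

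The rule for named items was the promoter peak of each member gene, every member peak called, any listed pathway gene called and the 2 promoters most like each promoter member. Stat2 +14.1 kb, Batf2 +16.4 kb, Irf8 +10.4 kb, Irf2 +104.0 kb, Irf2 +16.3 kb, the genes Usp18 and Spib, and the marker genes Mpeg1, Klra1 and Klrd1 fall outside it and were chosen after their values were seen. The members and lists were chosen with earlier results of these data known. A listed gene and a sequence are not reported here.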

Additional observations from a re-analysis of the deposited data

Results flagged for a closer look

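The difference of the NK effect between A/B and C/D passed its own test in the joint edgeR fit for 5 values. At TP1 these were Irf9 +0.7 kb (log2 difference 0.19, adjusted p = 0.022), Batf2 +23.6 kb (0.77, adjusted p = 0.0035) and Irf8 +10.4 kb (-0.46, adjusted p = 0.0035). At TP2 they were Irf8 +4.3 kb (-0.53, adjusted p = 0.0099) and Irf8 +10.4 kb (-0.43, adjusted p = 0.0060). Groups of 3 libraries were not examined for outlying samples beyond the comparison of library pairs with sampling noise. In line D of experiment 9.6 with NK cells at TP2, replicate 2 had 97577 called peaks, against 48788 and 43621. Its ratio of squared difference to sampling noise was 7.689 against replicate 1 and 6.595 against replicate 3, and 1.473 between those. It was kept in the main fits. None of the 5 passed without replicate 1. Without replicate 2 only Irf8 +10.4 kb at TP1 passed, with adjusted p of 0.097 at Irf9 +0.7 kb, 0.0822 at Batf2 +23.6 kb, 0.151 at Irf8 +4.3 kb and 0.127 at Irf8 +10.4 kb at TP2, and without replicate 3 only Irf9 +0.7 kb did not (0.0689).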

How the results depend on the processing

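Of 147 alternative values of the 9 counts of member calls, 115 were within 1.5 times the reported count and 32 were not. With peaks called in every library, a set that leaves out Irf1 +2.6 kb and Batf2 +23.6 kb, the counts were 1 and 0 in A/B at TP1 and TP2 and 0 and 0 in C/D. In C/D at TP1 the count was 2 under a loess scaling and, as alternatives chosen after seeing the data, 2 without experiment 9.7 and 2 without the presence rule. Single experiments, with fewer samples, moved the counts. Experiment 9.5 gave 4 in A/B and 2 in C/D at TP1, 1 in C/D between the times, 5 and 0 differences between the pairs at TP1 and TP2, and 2 members in cells alone. Experiment 9.5.1 gave 0, 1 and 1 in C/D at TP1, at TP2 and between the times. Experiment 9.6 gave 1 in A/B and 1 in C/D between the times and 0 differences at either time. Experiment 9.6.1 gave 3 at TP1 and 1 between the times. Experiment 9.7 gave 5 at TP2 and 2 between the times in C/D, 0 and 4 differences, and 2 members in cells alone. These counts take calls in either direction. The 4 in A/B at TP1 in 9.5 include Irf8 +10.4 kb, called lower. The 5 in C/D at TP2 in 9.7 include Stat2 +14.1 kb, also called lower.

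Without 1 replicate the counts ranged from 2 to 3 (A/B TP1), 2 to 2 (A/B TP2), 1 to 2 (C/D TP1), 3 to 3 (C/D TP2), 0 to 0 (both comparisons of the times), 0 to 2 for the differences at each time and 0 to 1 in cells alone. Over the 20 tested peaks, 2250 alternatives of 119 values gave 2193 on the same side of the threshold, 26 that lost it, 29 that gained it and 2 in which a value past the threshold changed sign (values not past it were not followed for sign): Batf2 +23.6 kb in C/D at TP2 in experiment 9.7 (-0.13) and the Irf8 +4.3 kb difference at TP2 in experiment 9.5 (0.0068). Where the number of samples or peaks does not show it, the cause was not tested.

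Samples with the same replicate number did not deviate together (median r of 0.024 over 124 pairs, 31 of them above 0.1, against -0.011 over 248 pairs of different numbers), and a replicate block left the counts at 2, 2, 0, 1, 3 and 0. The 33 members outside the main test had median counts of 1 to 50 per library. Without the presence rule 28 members in A/B and 27 in C/D were tested, and no peak beyond those called in the report was called.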

Other observations

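Irf2 +16.3 kb, 1 of the untested members and named after its values were seen, had 0, 0.987 and 1.28 CPM in the lowest, median and highest A/B sample alone, 1.06, 2.43 and 4.31 CPM with NK cells at TP1 and 0.519, 1.98 and 3.59 CPM at TP2. Of 18 samples 17 at TP1 and 15 at TP2 were above the highest alone. In C/D it had 0.324, 0.844 and 1.92 CPM alone, 0.766, 1.47 and 2.50 CPM at TP1 and 0.566, 1.57 and 4.37 CPM at TP2. There 4 of 24 samples at TP1 and 9 of 23 at TP2 were above the highest alone. Its median count was 10 per library. The share of all peaks with such a separation is not given, and no test was run on this peak.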
